A study of Rattus norvegicus with 6 samples.

Results

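The let-7 and miR-98 family was represented by 9 guide strands, the 5p mature forms rno-let-7a-5p, rno-let-7b-5p, rno-let-7c-5p, rno-let-7d-5p, rno-let-7e-5p, rno-let-7f-5p, rno-let-7g-5p, rno-let-7i-5p and rno-miR-98-5p, written here without the prefix rno. The members were picked out by name, with earlier results of these data known. Each had 1 spot among the 761 rat miRNA probes of the array. The samples were cultures of precursors of rat oligodendrocytes, the glial cells that give rise to myelin-forming oligodendrocytes. There were 3 samples titled DIV3, from precursors in Raff medium whose growth factors had been changed so that they differentiated, and 3 samples titled DIV0, from precursors grown in Raff medium under the normal condition. Each was hybridised with Cy5 to 1 array. The labels name no strain, age or sex of animal, and do not say whether the samples came from separate cultures, and the p-values below therefore reflect the spread of these 6 samples alone, possibly a technical spread. Time in culture goes with the growth condition, and their parts cannot be told apart. In RNA from whole cultures, fewer cells of a type and less RNA per cell cannot be told apart either.

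MicroRNAs guide Argonaute proteins to messenger RNAs through their seed, the bases near the 5′ end. The let-7 miRNAs were found in worms as timers of development, and in mammals they are known to accumulate as cells leave proliferative, stem-like states and to repress growth genes such as Hmga2. Their maturation is held back by the RNA-binding protein LIN28, which recognises a GGAG stretch in the loop of the precursor.

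The 9 mature sequences are shown because they set both the shared targets of the family and the difficulty of telling its members apart by hybridisation. They were taken from RefSeq (GRCr8), where all 9 names matched, and run 5′ to 3′ with the seed, bases 2 to 8, in capitals.
let-7a-5p: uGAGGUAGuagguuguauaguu
let-7b-5p: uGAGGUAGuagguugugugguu
let-7c-5p: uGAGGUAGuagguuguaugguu
let-7d-5p: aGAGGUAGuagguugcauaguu
let-7e-5p: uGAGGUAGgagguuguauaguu
let-7f-5p: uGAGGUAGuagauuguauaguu
let-7g-5p: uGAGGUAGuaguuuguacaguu
let-7i-5p: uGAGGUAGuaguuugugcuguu
miR-98-5p: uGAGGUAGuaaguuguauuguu

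All 9 carry the same seed, and these 9 were the only names with it among 693 rat mature names in the table. Outside the seed the members differ from let-7a-5p at 1 to 4 of 22 bases, counted from the 5′ end. The substitution in let-7c-5p is A19G, in let-7e-5p U9G and in let-7f-5p G12A. In let-7b-5p the substitutions are A17G and A19G, in let-7d-5p U1A and U16C, in let-7g-5p G12U and U18C, and in miR-98-5p G11A and A19U. The most distant from let-7a-5p is let-7i-5p, with G12U, A17G, U18C and A19U. Over all 36 pairs of members the number of differing bases was 1 to 6, and 4 pairs differed at a single base. The probe sequences are not given in the sources used here, and how far a probe also bound its near neighbours was not tested.

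The 9 mature forms come from 12 loci in GRCr8. On chromosome 17, plus strand, let-7a-5p lies at chr17:16320145-16320166, let-7f-5p at chr17:16320508-16320529 and let-7d-5p at chr17:16322273-16322294. On the X chromosome, plus strand, let-7f-5p lies at chrX:24460052-24460073 beside miR-98-5p at chrX:24460663-24460684. On chromosome 7, let-7c-5p at chr7:118683636-118683657 adjoins let-7b-5p at chr7:118684044-118684065 on the plus strand, and let-7i-5p lies apart on the minus strand at chr7:60527935-60527956. Further loci neighbour genes of the miR-99, miR-100 and miR-125 families, all on the plus strand. They hold let-7e-5p at chr1:67350243-67350264, let-7a-5p at chr8:50805219-50805240 and let-7c-5p at chr11:29688127-29688148. The last locus is let-7g-5p, at chr8:115701026-115701047 on the plus strand. An array that reads the mature RNA cannot divide let-7a, let-7c or let-7f between their loci.

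The letters GGAG, searched on the hairpin's own strand only, stood between the arms in 8 of the 10 member hairpins for which both arms were annotated. Of all 19 annotated rat hairpins with loops of the same lengths, 23 to 36 bases, 9 held them, those 8 included, as did 9.13% of annotated loops of any length. The pair of neighbours on the X chromosome shows both cases, with the 5p and 3p arms in capitals. The hairpin of let-7f-2 lies at chrX:24460045-24460127 and has GGAG between its arms, and that of miR-98 lies at chrX:24460648-24460755 and has none there.
let-7f-2 hairpin: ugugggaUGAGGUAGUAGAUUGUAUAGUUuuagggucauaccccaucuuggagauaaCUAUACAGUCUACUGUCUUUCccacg
miR-98 hairpin: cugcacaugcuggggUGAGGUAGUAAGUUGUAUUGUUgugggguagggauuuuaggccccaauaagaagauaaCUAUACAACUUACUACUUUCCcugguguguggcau

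One array was much dimmer than the others, which touches every comparison below. Relative to the mean of the blank spots, the miRNA spot of median brightness was at 27.9 (replicate 1), 44.7 (replicate 2) and 33.1 intensity units (replicate 3) in DIV3, and at 25.5, 37.7 and 5.87 units in DIV0. The state of the cells was described with 4 miRNAs known from oligodendrocyte maturation, namely 2 arms of miR-219a, miR-338-3p and miR-138-5p. They were listed with earlier results of these data known, so their rise is no independent check of that state. All 4 rose by 1.64 or more on the log2 scale (limma on quantile-normalized values, adjusted p 0.0149 to 0.0346), beside 1.15% of the 695 miRNAs tested. All 4 passed in 10 of 24 alternative settings and 0 in 9, among them the deposited values and the fits without any 1 DIV3 array or the DIV0 array of replicate 3. In every setting but the local background all 4 were higher in DIV3. Their summed deposited intensity was 2513 to 3877 units on the DIV3 arrays and 160 to 698 on the DIV0 arrays. Of 4 neuronal, 4 microglial or blood and 4 endothelial or mural miRNAs, 0 passed at an adjusted p of 0.05 by limma, beside 2.01% of all miRNAs tested. Lists this short can hold 0 calls at that share, so unchanged levels are not shown. Their summed intensities overlapped between the conditions, at 275 to 388, 167 to 330 and 36 to 62 units on the DIV3 arrays and 343 to 383, 153 to 445 and 23 to 71 units on the DIV0 arrays. Of the endothelial or mural list 2 of 4 were detected on all 6 arrays. The part of other cells in the let-7 levels was not tested.

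The let-7 probes were among the brightest on every array, in both conditions. All 9 were detected, meaning more than 2 SD above the blank spots, on all 6 arrays, at 84.2 to 6767 units above the blank mean. Together they gave 13.5%, 12.98% and 11.6% of the summed signal of all 761 miRNA probes on the DIV3 arrays, and 12.7%, 11.6% and 12.3% on the DIV0 arrays. The mean was 12.7 ± 0.970% in DIV3 and 12.2 ± 0.582% in DIV0 (SD, n = 3 each), so that the difference was smaller than the spread between replicates. Brightness depends on the probe as well as on the amount of RNA, and an order of probes is no order of abundance.

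The signal rank of a probe within its array needs no scaling between arrays. Rank 1 is the brightest of the 761 probes. The 4 members let-7a-5p, let-7f-5p, let-7c-5p and let-7d-5p held ranks 5 to 13 on all arrays. Neighbours in this order overlapped, while let-7a-5p, at 5 to 8, and let-7d-5p, at 9 to 13, did not. Dimmer than all 4 on every array was let-7b-5p, at ranks 12, 14 and 17 in DIV3 and 15, 19 and 15 in DIV0. A dimmer group followed, with let-7i-5p at ranks 24 to 33, let-7e-5p at 33 to 37 and let-7g-5p at 33 to 42. The ranks of these 3 also met or overlapped. The dimmest was miR-98-5p, at ranks 78, 80 and 81 in DIV3 and 83, 94 and 78 in DIV0. The mean rank of each of the 9 members was nearer the top in DIV3, by 0.333 (let-7a-5p) to 5.33 places (miR-98-5p, 0.833 without the DIV0 array of replicate 2). This held for 6 to 9 members when 1 array was left out, a check chosen after seeing the data, with the 6 found without the DIV3 array of replicate 2. The ranks of the conditions overlapped for each member except let-7f-5p, at 6 to 7 in DIV3 and 9 on every DIV0 array. Quantile-normalized levels, which follow the ranks, were apart in this direction for 10.1% of all miRNAs tested. Their fitted change was above 0 for all 9 members, beside 46.8% of all miRNAs tested. The members share arrays and normalization, so this is no set of 9 separate observations.

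**Figure D1:**
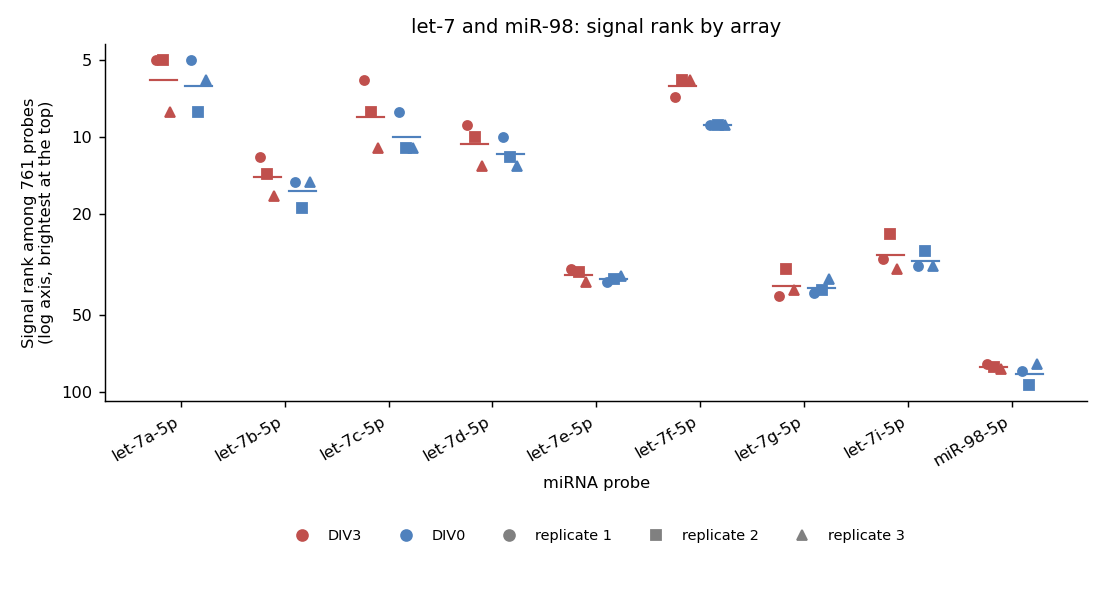
Signal rank of the 9 probes among 761 miRNA probes (log axis, brightest at the top) on each array, with DIV3 in red left of DIV0 in blue, symbols for replicates and lines for means. The ranks of the conditions overlap for each member except let-7f-5p, at 6 to 7 in DIV3 and 9 in DIV0. Quantile-normalized levels were apart in this direction for 10.1% of all miRNAs tested.

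The deposited values are intensities above the blank mean, scaled so that the median of the miRNAs with a value on an array is 25. Spots that were not detected have no value, from 36 of 761 (DIV3, replicate 1) to 156 (DIV0, replicate 3). The median of 25 therefore covers different sets of miRNAs on different arrays. For let-7f-5p they were 3405, 2951 and 2880 on the DIV3 arrays of replicates 1, 2 and 3, and 2939, 2300 and 2378 on the DIV0 arrays. The lowest DIV3 value lay below the highest DIV0 value, so the groups overlapped on this scale. The values of let-7a-5p, the brightest member on average, were 4061, 3034 and 2831 in DIV3 and 3583, 2383 and 2561 in DIV0. Replicate 1 was the brightest in both conditions, and the groups again overlapped. For let-7c-5p the values were 3442, 2587 and 2217 in DIV3 and 2970, 2000 and 2138 in DIV0. For let-7b-5p, its neighbour on chromosome 7, they were 2586, 1909 and 1770 in DIV3 and 2085, 1438 and 1727 in DIV0. Both showed the same arrays high and low, and both overlapped.

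The remaining bright member, let-7d-5p, had 3174, 2408 and 2063 units in DIV3 and 2739, 1965 and 2022 in DIV0. For let-7i-5p the values were 1144, 1171 and 945 in DIV3 and 1059, 1009 and 860 in DIV0. In each of these the groups overlapped. The values of let-7e-5p were 1071, 899 and 884 in DIV3 and 935, 733 and 817 in DIV0, and those of let-7g-5p were 978, 943 and 858 in DIV3 and 861, 679 and 810 in DIV0. For let-7g-5p only the lowest DIV3 value and the highest DIV0 value crossed. For miR-98-5p they were 322, 262 and 270 in DIV3 and 276, 176 and 245 in DIV0. Within each pair of equal replicate number, all 9 members had the higher deposited value in DIV3. The 9 values of an array share 1 scaling factor, so this is no set of 9 separate observations. The median over all miRNAs with deposited values was also higher in DIV3 in each pair, by 0.12, 0.04 and 0.11 on the log2 scale, beside 0.21, 0.36 and 0.11 for the members, so that in pair 3 the members and all miRNAs hardly differed. The groups were apart for 0 of the 9 members on this scale, beside 9.48% of the miRNAs listed on all 6 arrays with all DIV3 values higher.

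**Figure D2:**
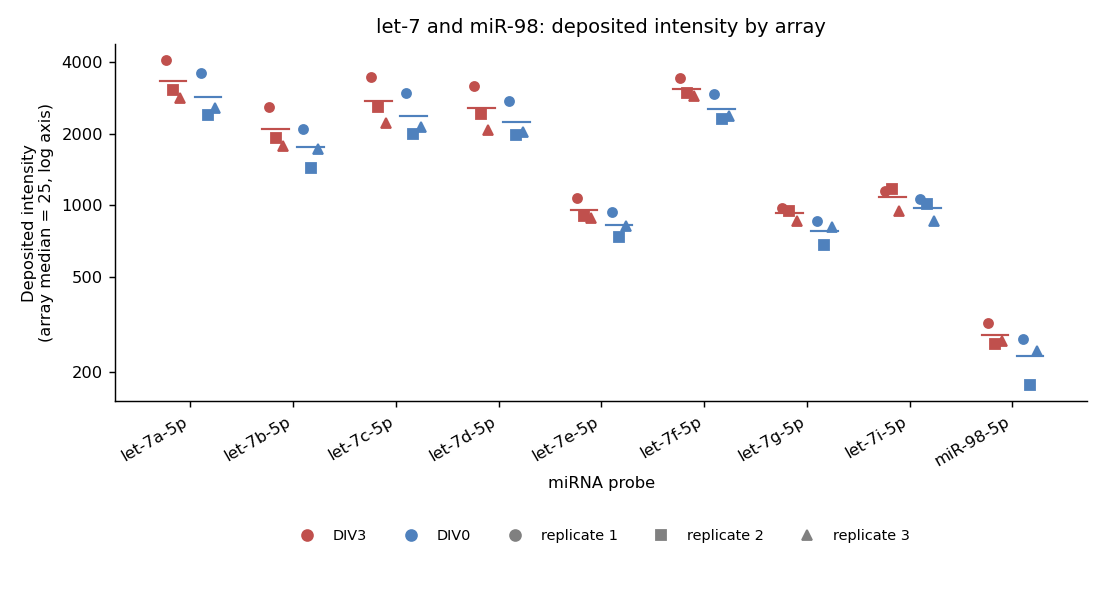
Deposited intensity of the 9 probes on each array (log axis, median of the miRNAs with a value set to 25). DIV3 is in red left of DIV0 in blue, with symbols for replicates and lines for means. Means were higher in DIV3 for all 9, from 285 against 232 units for miR-98-5p to 3309 against 2842 for let-7a-5p, with overlapping points in every case.

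The main question was whether the family changed with differentiation. On log2 intensities that were background-corrected, given an offset of 50 units and quantile-normalized, 0 of the 9 members rose and 0 fell at an adjusted p of 0.05 (limma, Benjamini-Hochberg adjustment over 695 miRNAs, 1 member at an unadjusted p under 0.05, beside 14.5% of all miRNAs). Among all 695 miRNAs 14 passed, or 2.01%, with 8 higher (1.15%) and 6 lower (0.863%). When replicate numbers were fitted as a block, 26 miRNAs passed (3.74%), 13 in either direction. With the slide, read from the names of the scans, as a random block, 30 passed (4.32%). In both cases 0 members passed. The split of calls moved with the scaling, with 8 higher and 2 lower under cyclic loess (1.44% in all), 4 higher and 0 lower with 1 factor per array after the offset (0.576%), and 6 higher and 0 lower with an offset of 16 (0.863%). The 9 fitted changes ran from 0.02 (let-7g-5p) to 0.19 (let-7f-5p) on the log2 scale, or 1.01- to 1.14-fold, with adjusted p-values of 0.136 to 0.966 by limma. Their median was 0.07, beside a median of -0.01 over all miRNAs tested. All 9 were above 0, as were 46.8% of all miRNAs tested, but the 9 share arrays and normalization and are not separate observations.

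The intervals give the precision of these changes under this scaling. The highest upper limit of a 95% interval was 0.42 on the log2 scale, for miR-98-5p, which is 1.34-fold, and the lowest lower limit was -0.20, for let-7i-5p. These limits hold for quantile-normalized values only. Quantile normalization gives each rank 1 common value, so a bright probe that keeps its rank is given no change.

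The member that came nearest to the threshold was let-7f-5p. Its normalized log2 level was 11.84, 11.88 and 11.88 in DIV3 and 11.68 on all 3 DIV0 arrays, where it held rank 9 each time. The groups did not overlap, which was true of 1 of 9 members in the higher direction and of 10.1% of all miRNAs tested. The log2 change was 0.19 ± 0.05 (SE, n = 3 per group, limma adjusted p = 0.136), or 1.14-fold. The equal DIV0 ranks left a group SD of 0 on this scale, which the deposited values of let-7f-5p did not share, with 3079 ± 285 in DIV3 and 2539 ± 349 units in DIV0 (SD, n = 3 each). Over all other settings that were run its adjusted p by limma was 0.0638 to 0.914.

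Next in size was miR-98-5p, at 8.71, 8.65 and 8.63 in DIV3 and 8.56, 8.27 and 8.71 in DIV0. The lowest value was the DIV0 array of replicate 2, and the highest levels of both conditions were equal. The change was 0.15 ± 0.11 (SE, n = 3 per group, limma adjusted p = 0.680). Without the DIV0 array of replicate 2 the change was 0.0145, and without the dim DIV0 array of replicate 3 it was 0.26. Its chromosomal neighbour let-7f-5p differed from it in pair 3, where miR-98-5p was lower in DIV3.

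The other 7 members had smaller changes with groups that overlapped. For let-7c-5p the change was 0.12 ± 0.11 and for let-7b-5p 0.11 ± 0.11. For let-7d-5p it was 0.07 ± 0.10 and for let-7i-5p 0.07 ± 0.11. The changes of let-7e-5p, let-7a-5p and let-7g-5p were 0.03 ± 0.05, 0.03 ± 0.08 and 0.02 ± 0.08 (SE, n = 3 per group for each). The 3 miRNAs of the chromosome 17 cluster, let-7a, let-7f and let-7d, thus had changes of 0.03, 0.19 and 0.07, though let-7a and let-7f also arise elsewhere. The difference between members was not tested.

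After quantile normalization the 3 pairs of equal replicate number did not point one way. Members were higher in DIV3 for 7 of 9 in pair 1 and 9 of 9 in pair 2, but for 1 of 9 in pair 3, where 2 were equal and 6 lower. The member of pair 3 that was higher was let-7f-5p. The median difference of the members was 0.11, 0.20 and -0.06 on the log2 scale in pairs 1, 2 and 3, beside 0.00, -0.01 and -0.01 over all miRNAs tested. Pair 3 holds the dim DIV0 array. By the names of the scans, pairs 1 and 2 each shared a slide, so that their values are also those within a slide. The arrays of pair 3 lay on separate slides by these names, and there slide and condition cannot be told apart.

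**Figure D3:**
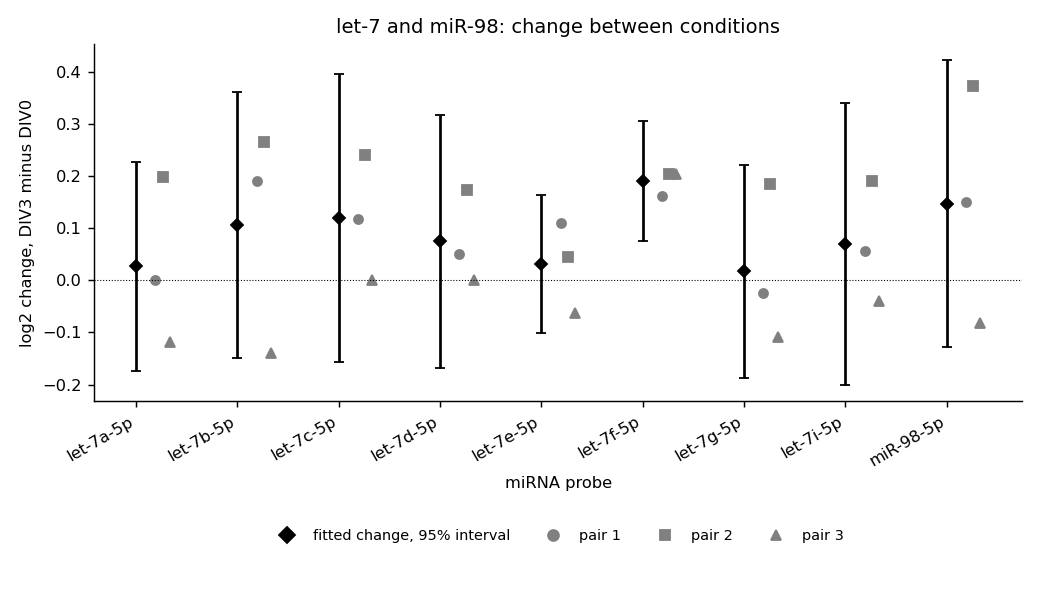
Log2 change of each member, DIV3 minus DIV0, on quantile-normalized values. Black diamonds with bars are fitted changes with 95% intervals (limma, n = 3 per group), and grey symbols are differences between arrays that share a replicate number. The interval of let-7f-5p alone lies above 0, before adjustment, and pair 3 is the lowest for each member except let-7f-5p.

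The size and even the direction of the family's change depended on the scaling. Under cyclic loess the 9 changes ran from -0.10 to 0.19 on the log2 scale, with 3 above 0, and their median less that of all miRNAs tested was -0.02. There let-7f-5p, which has the largest change after quantile normalization, was at -0.02 and miR-98-5p at 0.19. With 1 factor per array and 16 units added after scaling they ran from 0.05 to 0.20, with a median 0.14 above that of all miRNAs. In the deposited values, also scaled by 1 factor, they ran from 0.15 to 0.31, with a median 0.17 above that of all miRNAs. Of the 9 members 0 passed under any of these 3, beside 1.44%, 1.73% and 0% of all miRNAs tested (limma, lowest adjusted p 0.455 to 0.669). At an unadjusted p under 0.05 by limma there were 0 members, beside 88, 86 and 55 of 695 miRNAs.

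The largest values came from adding the 50 units before scaling by 1 factor. There the 9 changes were 0.71 to 0.87, with a median 0.77 above that of all miRNAs tested. On this scale 0 members passed, beside 0.576% of all miRNAs (limma, lowest adjusted p 0.594). At an unadjusted p under 0.05 by limma there was 1 member, beside 50 of 695 miRNAs. The median differences of the members in pairs 1, 2 and 3 were 0.13, 0.47 and 1.76, so the pair with the dim array gave the most. Without both arrays numbered 3 the changes on this scale were 0.18 to 0.38, with a median of 0.30. There 0 members passed, beside 1.01% of all miRNAs, and 2 had an unadjusted p under 0.05, beside 53 of 695 miRNAs (limma). On the other scales pair 3 was not the highest. Its median was -0.06 after quantile normalization, -0.10 after cyclic loess, -0.01 with 16 units added after scaling and 0.11 in the deposited values.

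Correction against the local background gave the opposite sign for most members. It put 7 of 9 below 0, with changes from -1.91 for let-7f-5p to 0.40 for let-7i-5p. Of the members 0 passed, beside 0.144% of all miRNAs, and 2 had an unadjusted p under 0.05, beside 49 of 695 miRNAs (limma). The local background of the member spots was at or above the spot itself for 6, 6 and 7 of 9 members on the DIV3 arrays, and for 5, 1 and 3 of 9 on the DIV0 arrays. Over all miRNA probes the log spot and log local background correlated at 0.939 to 0.982 on single arrays, as a description across probes. The local background therefore went with the spot, and what ties them was not tested.

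**Figure D4:**
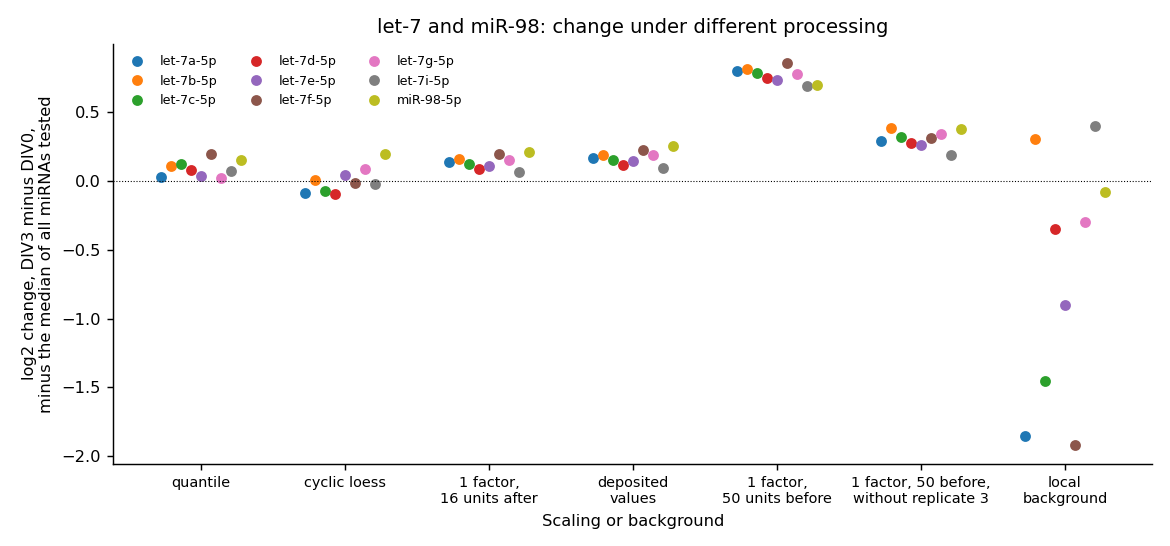
Log2 change of each member, DIV3 minus DIV0, less the median change of all miRNAs tested, under 7 ways of scaling or background correction (columns). The 9 points lie from -0.10 to 0.21 under quantile, loess and 1-factor scaling with 16 units after it, at 0.09 to 0.25 in the deposited values, at 0.69 to 0.86 with 50 units added before scaling, at 0.19 to 0.38 there without replicate 3, and from -1.92 to 0.40 with the local background.

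The balance within the family can be read without any scaling between arrays, from the share of each probe in the summed signal of the 9. The share of let-7f-5p was 16.9%, 18.3% and 19.6% on the DIV3 arrays and 16.8%, 18.1% and 17.5% on the DIV0 arrays. Its mean share was 18.2 ± 1.35% in DIV3 and 17.5 ± 0.644% in DIV0 (SD, n = 3 each), so the difference of 0.725 percentage points was within the spread between replicates. It was 0.0561 points without the DIV3 array of replicate 3 and 1.41 points without that of replicate 1, a check added after seeing the data. The largest share, that of let-7a-5p, was 19.4 ± 0.685% in DIV3 and 19.4 ± 0.979% in DIV0. The share of let-7d-5p was 14.9 ± 0.856% in DIV3 and 15.4 ± 0.407% in DIV0, the largest difference in the lower direction. All 9 shares overlapped between the conditions. A change common to the whole family would leave these shares as they are, and probe brightness sets their size.

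**Figure D5:**
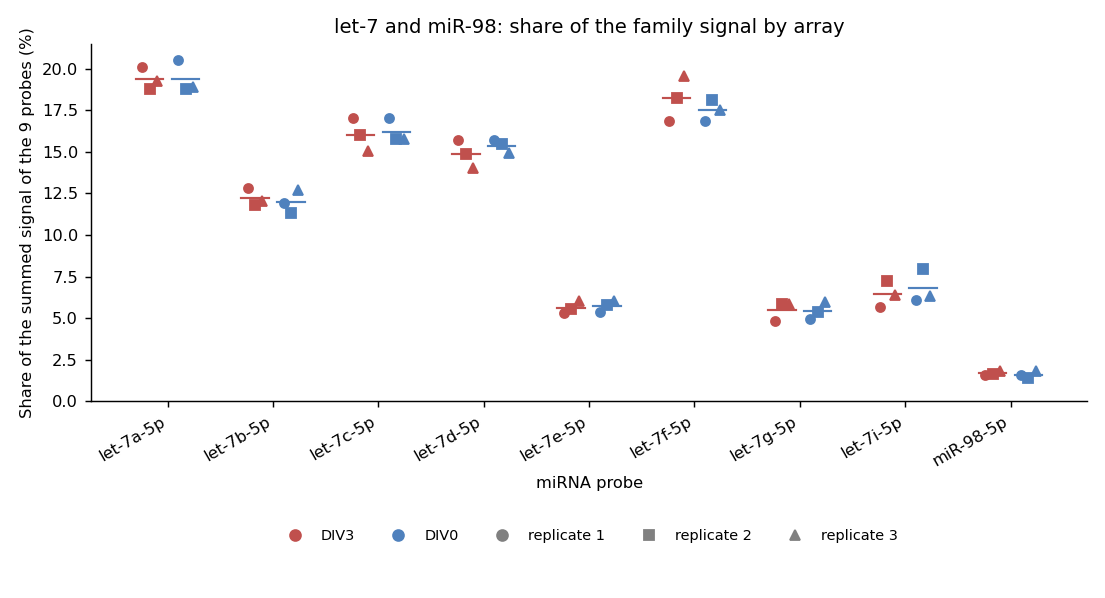
Share of each probe in the summed signal of the 9 members above the blank mean (percent) on each array, with DIV3 in red left of DIV0 in blue, symbols for replicates and lines for means. Shares of the conditions overlap for all 9, from about 1.68% in DIV3 and 1.59% in DIV0 for miR-98-5p to 19.4% in both for let-7a-5p.

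The opposite arms of the same precursors, which are mostly discarded when the guide strand is loaded, gave far weaker spots, 1.22 to 107 units above the blank mean. Of 12 names 11 probes were on the array, as let-7a-1-3p and let-7c-2-3p share 1. All 11 were tested, and 0 rose and 0 fell (limma, 0 at an unadjusted p under 0.05). Among all miRNAs tested 2.01% passed the adjusted threshold and 14.5% the unadjusted one. A list of 11 can hold 0 calls at the adjusted share, so unchanged levels are not shown. The changes ran from -0.12 (let-7d-3p) to 0.14 (let-7f-1-3p), with a median of 0.03. The deposited values of let-7f-1-3p were 33, 32 and 28 in DIV3 and 23, 21 and 25 in DIV0, which did not overlap, as for 9.48% of miRNAs on that scale. Its normalized levels did overlap, at 6.46, 6.56 and 6.53 in DIV3 and 6.33, 6.32 and 6.50 in DIV0. Its log2 change was 0.14 ± 0.07 (SE, n = 3 per group, limma adjusted p = 0.450), and it comes from the chromosome 17 precursor of let-7f. The 1 opposite arm whose normalized levels did not overlap was let-7b-3p, at 6.79, 6.78 and 6.78 in DIV3 and 6.67, 6.66 and 6.72 in DIV0, beside 10.1% of all miRNAs tested. Its change was 0.10 ± 0.05 (SE, n = 3 per group, limma adjusted p = 0.430). The second precursor of let-7f, on the X chromosome, gave let-7f-2-3p at 0.05 ± 0.09. For let-7d-3p, whose values were 59, 48 and 32 in DIV3 and 56, 52 and 45 in DIV0, the groups overlapped. Changes of spots this dim are understated by the 50 units added.

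Rat has miRNA genes antisense to let-7 precursors, the miR-3596 group, a set named here after the files were seen. The listed miR-3596a sequence is the exact complement of let-7a-5p over 22 bases, and lies at chr8:50805219-50805240 on the minus strand. It is shown as the mirror of let-7a-5p.
miR-3596a: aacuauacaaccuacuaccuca
The other 3 are exact complements of 20 or 21 bases of let-7d-5p (miR-3596b), let-7e-5p (miR-3596c) and let-7f-5p (miR-3596d). Their spots lay 1.10 to 48.2 units above the blank mean, against 281 to 6767 units for let-7a-5p, let-7d-5p, let-7e-5p and let-7f-5p. The probe of miR-3596a was detected on 3 of 3 DIV3 arrays and 1 of 3 DIV0 arrays, and that of miR-3596c on all 6. Of the 4, 0 rose and 0 fell (limma, 0 at an unadjusted p under 0.05), with changes from -0.05 to 0.10. By the same fit 2.01% of all miRNAs passed the adjusted threshold and 14.5% the unadjusted one. The normalized levels of 2 of the 4 did not overlap, with DIV3 higher, beside 10.1% of all miRNAs. Those of miR-3596a were 5.951 to 6.057 in DIV3 and 5.860 to 5.947 in DIV0. Those of miR-3596b, detected on 2 of 3 DIV0 arrays, were 6.026 to 6.132 in DIV3 and 5.865 to 6.020 in DIV0.

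Several let-7 precursors share primary transcripts in mammals with miR-99a, miR-99b, miR-100, miR-125a and miR-125b, known as regulators of growth and of mTOR signalling in the case of the miR-99 family. All 5 guide strands were bright, at 177 to 9659 units above the blank mean, and 0 rose and 0 fell (limma, 0 at an unadjusted p under 0.05). With 2.01% of all miRNAs passing the adjusted threshold and 14.5% the unadjusted one, 0 of 5 does not show unchanged levels. The changes of these 5 were 0.01 to 0.20 with a median of 0.11. The median was 0.07 for the 9 let-7 and miR-98 members and -0.01 for all miRNAs tested. The brightest, miR-125b-5p, had deposited values of 5265, 4331 and 4637 in DIV3 and 4043, 2757 and 3679 in DIV0, with no overlap on that scale, as for 9.48% of miRNAs. Its rank was 3 on 5 arrays and 5 on the DIV0 array of replicate 2. Its normalized level was therefore 12.39 on those 5 arrays and the groups overlapped, and its fitted change was 0.14 ± 0.12 (SE, n = 3 per group, limma adjusted p = 0.705).

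The family's mean normalized level was followed most closely over the 6 arrays by miR-133b-5p, miR-103-1-5p, miR-181d-5p, miR-3102 and miR-103-3p, out of 529 other miRNAs detected on all arrays. Their Pearson correlations with it were 0.911 to 0.963, a description over 6 arrays that share slides and normalization. Among the members themselves the profiles of let-7c-5p and let-7d-5p correlated most, at 0.976, and those of let-7c-5p and let-7g-5p least, at -0.23.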

How the data were processed

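The labels' protocols name a phenol reagent and a column kit for the RNA, and a labelling kit made for amplified mRNA, so that how miRNAs were labelled is not clear from them. Per the file headers, the scanner files give each spot's median intensity and that of the area around it, joined from scans at 3 gains. The authors also deposited a table of intensity values, with no account of how it was made. Set against the scanner files, each of its columns followed a linear function of the spots (residuals up to 0.523 units), so its scale is linear and no centring was found.

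Background was corrected by normexp with 1664 blank spots as negative controls, at an offset of 50 units (R 4.3.3, limma 3.58.1), followed by log2 and quantile normalization over 761 miRNA probes. A flagged spot of 1 miRNA was left out. Detection required 2 SD above the blank mean, with 5% of blanks trimmed at either end, and 695 miRNAs detected on at least 3 of 6 arrays were tested. DIV3 was compared with DIV0 by lmFit and eBayes, two-sided, at 0.05. The steps were tested on simulated data. Arrays of equal replicate number deviated together (correlations 0.37, 0.54 and 0.47 across miRNAs), which meets the rule for pairing. The planned fit, which gives the errors, intervals and adjusted p-values, has no block, and the blocked counts are given beside it. With the replicate block the largest SE of a member was 0.096 instead of 0.114, while that of let-7f-5p was 0.059 instead of 0.048. The lowest adjusted p of a member was then 0.173 instead of 0.136 (limma). Members, lists and settings were chosen with earlier results of these data known. The rule for named miRNAs took all 9 members, all opposite arms and transcript neighbours on fixed lists, and the 5 miRNAs most alike over the arrays. Precision is limited by the number of arrays.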

Additional observations from a re-analysis of the deposited data

How the results depend on the processing

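In all 24 alternatives run, 0 members passed, and the lowest adjusted p of a member was 0.0638 (let-7f-5p, slide as a random block). The number of miRNAs passing, 14, was 1 with the local background, 0 with the blank mean subtracted, 0 with the deposited values, 6 with an offset of 16, 26 with the replicate block and 30 with the slide as a random block (49, 88, 55, 93, 131 and 135 at an unadjusted p under 0.05 by limma). It was 4 with 1 factor per array and the offset before scaling, and 3, 0 and 7 there without both arrays numbered 1, 2 or 3. Without 1 array it was 0 to 13, at 0 without any of the DIV3 arrays or the DIV0 array of replicate 3 (73 to 117 at an unadjusted p under 0.05 over the 6 fits), and without both arrays of a number 0 to 5. The members' median log2 change, 0.07, was 0.22 in the deposited values, -0.35 with the local background, 0.79 with 1 factor and the offset first, and 1.13, 0.95 and 0.30 there without both arrays numbered 1, 2 or 3.

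Of 216 member values under the alternatives 22 turned sign, all short of the threshold, and the cause was not tested. With the local background let-7a-5p, let-7c-5p, let-7d-5p, let-7e-5p, let-7f-5p, let-7g-5p and miR-98-5p were at -1.85, -1.45, -0.35, -0.90, -1.91, -0.29 and -0.0736. Under cyclic loess let-7a-5p, let-7b-5p, let-7c-5p, let-7d-5p, let-7f-5p and let-7i-5p were at -0.0926, -0.0021, -0.0800, -0.10, -0.0239 and -0.0319. Without 1 array let-7a-5p was -0.02 to 0.10, let-7g-5p -0.06 to 0.08 and let-7i-5p -0.0494 to 0.16. The other 6 kept their sign there, with miR-98-5p at 0.0145 to 0.26, let-7b-5p at 0.0225 to 0.19, let-7c-5p at 0.0374 to 0.21, let-7d-5p at 0.0185 to 0.17, let-7e-5p at 0.0071 to 0.0682 and let-7f-5p at 0.17 to 0.22. Without both arrays of a number let-7a-5p was -0.0435 to 0.12, let-7e-5p -0.0115 to 0.0882 and let-7g-5p -0.0651 to 0.0845. The replicate block changed no member's call. The dim DIV0 array of replicate 3, at 5.87 units above blank for its median miRNA, limits what can be said of dim probes such as the opposite arms.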
